A study of Mus musculus with 231 samples.

Results

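miR-150 was followed as its mature strands mmu-miR-150-5p and mmu-miR-150-3p, the 2 rows with these names among the 1863 miRNAs of the training count table, in serial blood samples from mice with and without induced leukemia. The libraries were small RNA sequencing of peripheral blood mononuclear cells (PBMC) from C57BL/6 mice. In the conditional knock-in model (Cbfb56M/+/Mx1-Cre), the leukemogenic fusion gene Cbfb-MYH11 (CM), the mouse counterpart of the inv(16) fusion of acute myeloid leukemia (AML), is switched on by Cre recombinase from the interferon-responsive Mx1 promoter, which is not restricted to blood cells. All mice, CM and control (Ctrl) alike, received polyinosinic-polycytidylic acid (poly(I:C)), an interferon inducer, at 14 mg/kg per dose for 7 doses from an age of 6 to 8 weeks. The labels describe the Ctrl littermates as lacking the transgene, whereas the study's methods name Cbfb56M/+ littermates among their controls. Genotype was coded CHW in all CM mice, and CW, HW or WT in Ctrl mice, without a key.

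The training cohort held 53 libraries from 7 CM mice (4 female, 3 male) and 76 from 7 Ctrl mice (2 female, 5 male), taken before induction (month 0) and at monthly intervals up to month 10, with 2 extra CM libraries at month 6.5. Only 3 CM mice remained at month 7 and 1 at month 10. The validation cohort held 60 libraries from 10 CM mice and 42 from 6 Ctrl mice at points 1 to 7 and at a point L, whose meaning the labels do not give. The running numbers that follow the mouse number in the titles of CM mouse 3334 and Ctrl mouse 3335 cross between their earlier and later months. Without both mice the month 3 change of miR-150-5p reported below was -0.72 (adjusted p = 0.0342, edgeR), that of the last CM libraries -0.85 (adjusted p = 0.0462, edgeR) and the difference in strand ratio -0.56 (exact permutation test, p = 0.0043). Training libraries held 1792809 to 7958411 counts. In the validation cohort only the 12 libraries of point 5 were of this depth (1645456 to 5445215 reads), and the other 90 held 1744 to 76906.

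A miRNA hairpin is processed into a duplex of a 5p and a 3p strand, and the strand that is kept in the silencing complex pairs with target mRNAs mainly through its seed, bases 2 to 8. miR-150 is known as a miRNA of mature lymphocytes. It is low in lymphoid progenitors, rises as B and T cells mature and restrains the transcription factor Myb, and the 5p strand is the one that accumulates. In bulk PBMC a lower miR-150 level from fewer lymphocytes and from less miR-150 per lymphocyte cannot be told apart.

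The Mir150 hairpin gene lies on chromosome 7, at chr7:52377127-52377191 on the plus strand in mm9, the build named in the study's methods. It overlaps no other annotated gene. The mature 3p strand, which enters the strand ratio described below, is shown. In RefSeq (GRCm38.p6) it is 22 bases long and lies at chr7:45121798-45121819, plus strand, with the seed in capitals:
mmu-miR-150-3p: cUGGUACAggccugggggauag
No other of the 1679 mature mouse names in that reference carried this seed. The training counts cover 1863 miRNAs, and any of them absent from the reference were not checked for it.

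miR-150-5p was one of the abundant miRNAs of every training library. It ranked between 3rd and 31st by count, with a median rank of 8, and took between 0.592% and 7.51% of the counts. Its counts ranged from 23028 to 438157 per library, so that counting error was small beside the spread between mice. miR-150-3p was far rarer, with 729 to 6366 counts per library and a median rank of 90.

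The level of miR-150-5p was set beside that of the other miRNAs, as a description and not a test of its name as a lymphocyte miRNA. Levels are given as CPM (counts scaled to 1000000 per library) after TMM scaling, which corrects library size for shifts in a few abundant species. Over all training libraries, which share mice and months, the level of miR-150-5p on the log2(CPM + 1) scale was most like that of miR-342-3p (Pearson r = 0.86), a miRNA enriched in lymphocytes, among 330 miRNAs with a mean of at least 10 CPM. miR-146a-5p (r = 0.84), its own 3p strand (r = 0.81), miR-3964 (r = 0.81) and miR-28a-3p (r = 0.80) followed, and 3 of these 5 belong to a list of 11 lymphocyte miRNAs. That list was chosen with earlier results of these data known. The list as a whole was spread more widely, and its least alike members were miR-29a-3p (r = 0.47), miR-181a-5p (r = 0.21) and miR-181b-5p (r = 0.20). The correlations with miR-342-3p were 0.87 within the 53 CM libraries and 0.90 within the 76 Ctrl libraries. The least alike were miR-505-3p (r = -0.62), miR-674-5p (r = -0.63) and miR-185-3p (r = -0.65). The erythroid miR-451a had r = -0.38 and the myeloid miR-223-3p r = 0.30. Likeness was not confined to lymphocyte miRNAs. miR-142a-5p (r = 0.59) and miR-142a-3p (r = 0.58), which blood cells in general express, were more alike than the 3 least alike lymphocyte members. So was miR-10a-5p (r = 0.57), the most alike of a list of 8 progenitor miRNAs.

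Before induction the miR-150-5p levels of the 2 groups overlapped. The 7 CM libraries held 23434 to 54260 CPM with a median of 44790, and the 7 Ctrl libraries 29226 to 55625 CPM with a median of 44155. The lowest of the 14 was CM mouse 3334, and the other 6 CM libraries lay inside the Ctrl range. The difference was -0.05 ± 0.18 on the log2 scale (SE; adjusted p = 0.93, edgeR's quasi-likelihood test with Benjamini-Hochberg adjustment over the 478 miRNAs tested), in a month when 0.209% of miRNAs were called at an adjusted p under 0.05. miR-150-3p differed by 0.01 ± 0.19 (adjusted p = 0.989, edgeR).

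After induction miR-150-5p was lower in CM mice at month 3. There the 7 CM libraries held 16851 to 43501 CPM with a median of 38941. The 7 Ctrl libraries held 45186 to 76737 CPM with a median of 53224. Every CM library lay below every Ctrl library, the lowest being that of CM mouse 3338. The log2 fold change of CM over Ctrl was -0.70 ± 0.20 (SE; edgeR's quasi-likelihood test, adjusted p = 0.0222), against a background in which 22% of the 455 miRNAs tested were called and 7.69% were called lower. Without Ctrl mouse 3339 the change was -0.64 and the adjusted p 0.0514, and leaving out any 1 of the other 13 mice kept the call. With the G number of the library titles, an unexplained code, as a covariate, the change was -0.70 with an SE of 0.56 (adjusted p = 0.531, edgeR), and 6 miRNAs were called in place of 100. At month 3 only G3 held both arms (CM mouse 3334 and Ctrl mouse 3339). The other CM libraries were G4 or G5 and the other Ctrl libraries G1 or G2. Arm and G number can thus hardly be told apart in any month 3 comparison.

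The other months gave estimates in the same direction that did not pass the test. With month 0, before induction, and month 3 included, the log2 fold change of miR-150-5p in the counts was below 0 in 8 of 8 months, between -0.74 and -0.05. The months are repeat samples of the same mice and not independent. In the authors' normalized values the month 7 difference was 0.023. At month 1 the log2 fold change in the counts was -0.46 ± 0.28 (adjusted p = 0.244, edgeR), when 27.5% of miRNAs were called. The month 1 CM libraries ran from 14667 to 52733 CPM with a median of 33904, and the Ctrl libraries from 27454 to 59404 CPM with a median of 47071. CM mice 3336 and 3368, at 14891 and 14667 CPM, lay below every Ctrl library, while CM mouse 3334 was at the upper end of the Ctrl range.

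At month 2 the log2 fold change was -0.30 ± 0.28 (adjusted p = 0.476, edgeR; 13.5% of miRNAs called). At month 4 it was -0.74 ± 0.50 (adjusted p = 0.457, edgeR; 0.837% called), the largest estimate and the least precise. At month 2 only G3 and G7 held libraries of both arms, and at month 4 no G number did. Arm and G number thus cannot be told apart at month 4, and only in part at month 2. The month 4 CM libraries fell into a low pair, mice 3334 and 3338 at 6245 and 8215 CPM, and 4 others between 23179 and 49022 CPM, whereas Ctrl libraries ran from 14789 to 79303 CPM.

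Month 5 gave a change of -0.35 ± 0.22 (adjusted p = 0.394, edgeR), with 0% of miRNAs called by edgeR, although 21.6% had an unadjusted p under 0.05, DESeq2 called 18, and edgeR called 53 without mice 3334 and 3335. The estimates for months 6 and 7 were -0.10 ± 0.29 and -0.10 ± 0.28 (adjusted p = 0.902 and 0.891, edgeR), with 0% and 0.203% of miRNAs called. At month 6, 31 miRNAs had an unadjusted p under 0.05 in edgeR and DESeq2 called 0. Only G5 held libraries of both arms in that month. At months 8 to 10, with 2, 2 and 1 CM mice, no test was run, and the miR-150-5p levels of these mice of 13467 to 33149 CPM were set against Ctrl medians of 19025, 18376 and 17981 CPM.

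miR-150-3p was not called in any month. At month 3 the CM libraries held 669 to 1020 CPM with a median of 801, and the Ctrl libraries 695 to 965 CPM with a median of 796. The 2 arms overlapped over nearly their whole range, and the log2 fold change was 0.02 ± 0.13 (adjusted p = 0.93, edgeR). Its largest difference was 0.45 ± 0.19 at month 2 (adjusted p = 0.135, edgeR), when 4 of 6 CM libraries lay above every Ctrl library. Without CM mouse 3338 that difference was 0.61 with an adjusted p of 0.0433.

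**Figure D1:**
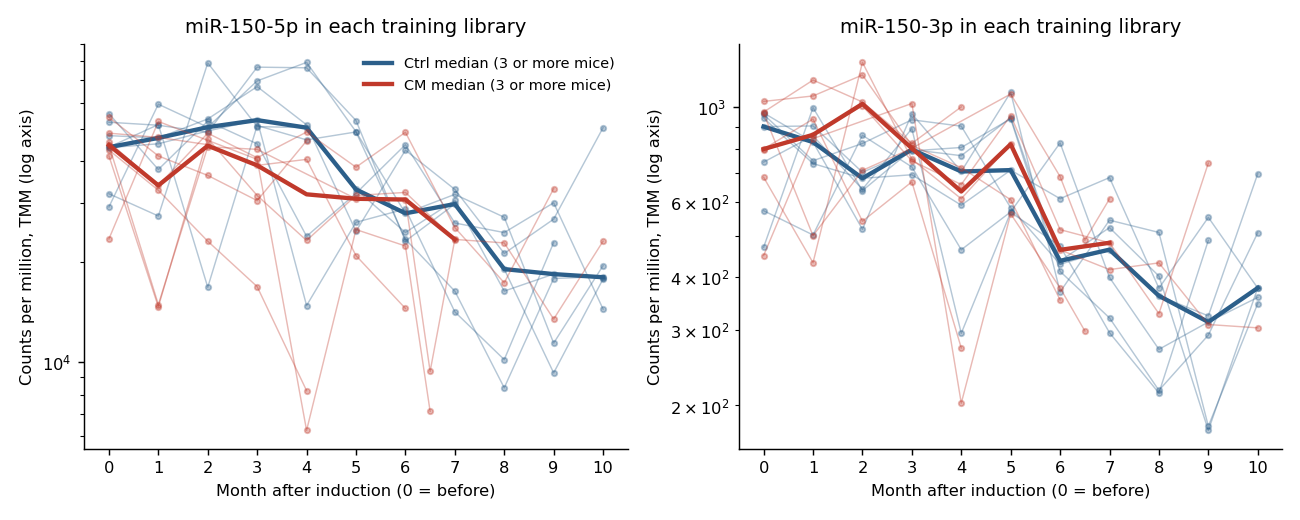
Levels of miR-150-5p (left) and miR-150-3p (right) in each training library, as TMM-scaled CPM on a log axis against month after induction. Thin lines join the libraries of 1 mouse and thick lines are medians of groups of 3 or more mice; at month 3 all 7 CM libraries of miR-150-5p (16851 to 43501 CPM) lie below all 7 Ctrl libraries (45186 to 76737 CPM), and the 3p levels overlap.

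**Figure D2:**
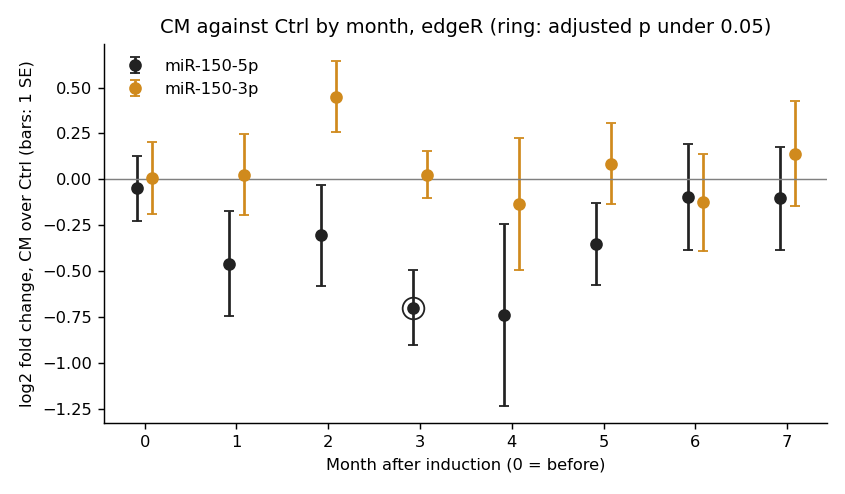
Log2 fold change of CM over Ctrl for each mature strand in months 0 to 7, with bars of 1 SE from edgeR and a ring where the adjusted p was under 0.05. The 5p points lie below 0 in 8 of 8 months with 1 ring, at month 3 (-0.70), and the 3p points lie between -0.13 and 0.45 with none.

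Every Ctrl mouse had a library in each of months 1 to 6. CM mice 3338 and 3357 had none after month 4, 3334 none at month 2 and 3336 none at month 4. The means of the 2 arms thus do not cover the same months. Averaged over the months each mouse had from 1 to 6, with 1 value per mouse, miR-150-5p stood at 14.85 ± 0.42 in the CM arm against 15.36 ± 0.26 in the Ctrl arm on the log2(CPM + 1) scale (SD, n = 7 each). The difference was -0.52 (two-sided exact permutation test over mice, p = 0.0152, adjusted p = 0.0606 over 4 tests), and 5 of 7 CM mice lay below every Ctrl mouse. It thus missed the threshold of 0.05 after adjustment. Without Ctrl mouse 3350, or CM mouse 3357 or 3370, it passed (exact permutation test, adjusted p = 0.0443, 0.042 and 0.014), and without the month 2 library of Ctrl mouse 3349 the adjusted p was 0.0373 (exact permutation test). Over all months in place of months 1 to 6 the difference was -0.24 (exact permutation test, adjusted p = 0.431), and without mice 3334 and 3335 it was -0.44 (exact permutation test, adjusted p = 0.216). The mean over all months draws its later months mostly from Ctrl mice, whose median was 19025 CPM at month 8, when 2 CM mice were left. The part of this unequal follow-up in the smaller difference was not tested.

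For miR-150-3p the same means were 9.45 ± 0.32 (CM) and 9.41 ± 0.12 (Ctrl) (SD, n = 7 each), a difference of 0.04 (exact permutation test, adjusted p = 0.787). The slopes over months 0 to 6 of miR-150-5p were -0.15 ± 0.22 log2 units per month for CM and -0.08 ± 0.06 for Ctrl (SD, n = 7 each; exact permutation test, adjusted p = 0.679). The CM slopes were the more scattered, from -0.58 in mouse 3338, whose libraries ended at month 4, to 0.02 in mouse 3370, and all 7 Ctrl slopes were below 0.

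The ratio of the 2 strands within a library does not depend on library scaling. Before induction the ratios of the 2 groups overlapped. In the count table the month 0 libraries held a median of 54.3 miR-150-5p counts for each miR-150-3p count in CM libraries (highest 60.6) and 55.9 in Ctrl libraries (highest 62.2), and log2 ratios of 5.53 to 5.92 and 5.62 to 5.96. At month 3 the medians were 41.9 (range 25.2 to 54.8) and 70.2 (range 59.7 to 87.7). Every month 3 CM library had a lower ratio than every Ctrl library.

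Over months 1 to 6, with the gaps in CM mice named above, the mean log2 ratio per mouse was 5.40 ± 0.23 in CM and 5.95 ± 0.20 in Ctrl mice (SD, n = 7 each), a difference of -0.55 (two-sided exact permutation test, p = 0.0012). In 6 of 7 CM mice the value lay below every Ctrl mouse, and in all 7 once the month 2 library of Ctrl mouse 3349, which has the lowest Ctrl ratio at 4.58, was left out. Leaving out any 1 mouse gave differences between -0.62 and -0.49. Within libraries of the same G number the CM mean was below the Ctrl mean for 6 of 7 numbers, with differences from -0.97 to 0.03. Each of these means mixed months, which were not matched between the arms, and a mouse could enter it more than once. The Ctrl mean log2 ratio itself was 6.14 at month 3 and 5.62 at month 5. A difference within both month and G number was not tested.

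Taken month by month, the log2 ratio was lower in CM libraries at months 1, 3 and 5, by differences of -0.55, -0.76 and -0.41 (exact permutation tests, p adjusted over 8 months = 0.0124, 0.0047 and 0.0101). At months 2 and 4 the differences of -0.65 and -0.68 missed the threshold (exact permutation tests, adjusted p = 0.0923 each). The arms shared only G3 and G7 at month 2 and no G number at month 4. For months 0, 6 and 7 they were -0.06, -0.04 and -0.21 (exact permutation tests, adjusted p = 0.505, 0.889 and 0.505).

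This difference in strand ratio passed the test in the raw count table and not in the authors' normalized table of the same libraries. The 2 tables gave miR-150-5p nearly the same reads (20251154 and 18212011 in all) but differed for miR-150-3p, with 373409 counts against 116749 reads. In the normalized table the difference over months 1 to 6 was -0.16 (exact permutation test, p = 0.164), and at month 3 it was -0.40 (exact permutation test, adjusted p = 0.308). The number of miR-150-3p counts per read of the normalized table had a median of 3.00 in CM and 2.68 in Ctrl libraries at month 0. In months 1 to 6 it had a median of 3.92 (range 2.66 to 5.93) in 36 CM libraries and 3.02 (range 2.27 to 4.89) in 42 Ctrl libraries. For miR-150-5p it stayed between 1.09 and 1.14 in both arms over those months.

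The difference of CM from Ctrl mice in mean miR-150-3p over months 1 to 6 was accordingly -0.33 in the normalized table (exact permutation test, adjusted p = 0.0385), where the count table gave 0.04. For miR-150-5p the normalized table gave -0.49 (exact permutation test, adjusted p = 0.0385). Which of the 3p tallies is nearer to the molecules in the sample was not tested.

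**Figure D3:**
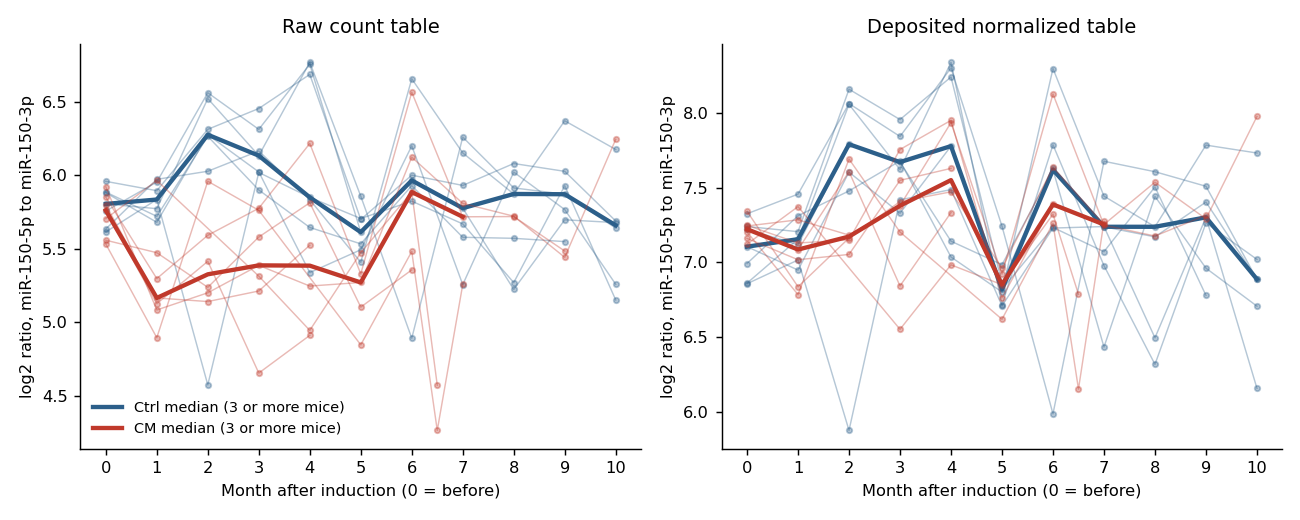
Log2 ratio of miR-150-5p to miR-150-3p in each training library against month after induction, from the raw counts (left) and from reads recovered from the normalized table (right), with CM in red, Ctrl in blue and thick lines for medians of 3 or more mice. The y axes differ in range; on the left the month 3 CM libraries (4.66 to 5.78) lie below the Ctrl libraries (5.90 to 6.45), and on the right the 2 arms overlap.

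miR-150-5p was also set against 4 other miRNAs within each library, and the mouse means have the same gaps in CM months. Relative to miR-342-3p, the lymphocyte miRNA whose level it most resembled, it was lower in CM mice, with a mean log2 ratio over months 1 to 6 of 2.13 ± 0.21 against 2.50 ± 0.15 in Ctrl mice (SD, n = 7 each). The difference was -0.37 (two-sided exact permutation test, adjusted p over the 4 ratios = 0.0047), and 6 of 7 CM mice lay below every Ctrl mouse. The normalized table gave -0.36 (exact permutation test, adjusted p = 0.0047), and leaving out any 1 mouse gave -0.41 to -0.31.

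Month by month the ratio to miR-342-3p separated the arms at month 2, when the 6 CM libraries ran from 1.92 to 2.33 and the 7 Ctrl libraries from 2.43 to 3.28 on the log2 scale (difference -0.61, exact permutation test, adjusted p over 8 months = 0.0047). At month 3 the difference was -0.53 (exact permutation test, adjusted p = 0.014), with 6 of 7 CM libraries below every Ctrl library. In both of these months arm and G number were largely confounded. At month 2 only G3 and G7 held both arms, with the other CM libraries in G1 or G2. A difference in this ratio within G number was not tested. Already at month 0 it was -0.19 (exact permutation test, adjusted p = 0.259), and 3 of 7 CM libraries lay below every Ctrl library. Months 1, 4 and 6 gave -0.18, -0.42 and -0.31 (exact permutation tests, adjusted p = 0.0995, 0.259 and 0.429). At months 5 and 7 the differences were 0.048 and -0.0084 (exact permutation tests, adjusted p = 0.722 and 0.983), and no CM library lay below every Ctrl library.

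Against miR-223-3p, a miRNA of neutrophils and monocytes, the mean log2 ratio was 2.11 ± 0.49 in CM and 2.79 ± 0.55 in Ctrl mice (SD, n = 7 each), a difference of -0.69 (exact permutation test, adjusted p = 0.0544). Against the erythroid miR-451a it was -0.40 ± 0.74 and 0.32 ± 0.38, a difference of -0.73 (exact permutation test, adjusted p = 0.0544). Both missed the threshold, and both passed without Ctrl mouse 3350 (exact permutation test, adjusted p = 0.0482 for each) or without CM mouse 3357 (adjusted p = 0.0225 and 0.0186). The ratio to miR-223-3p also passed without Ctrl mouse 3342 or 3346 (adjusted p = 0.0291 and 0.0268), and that to miR-451a without CM mouse 3370 (adjusted p = 0.0478). Against miR-142a-3p, which blood cells in general express, the ratio was 0.79 ± 0.31 in CM and 0.70 ± 0.21 in Ctrl mice (exact permutation test, adjusted p = 0.518).

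**Figure D4:**
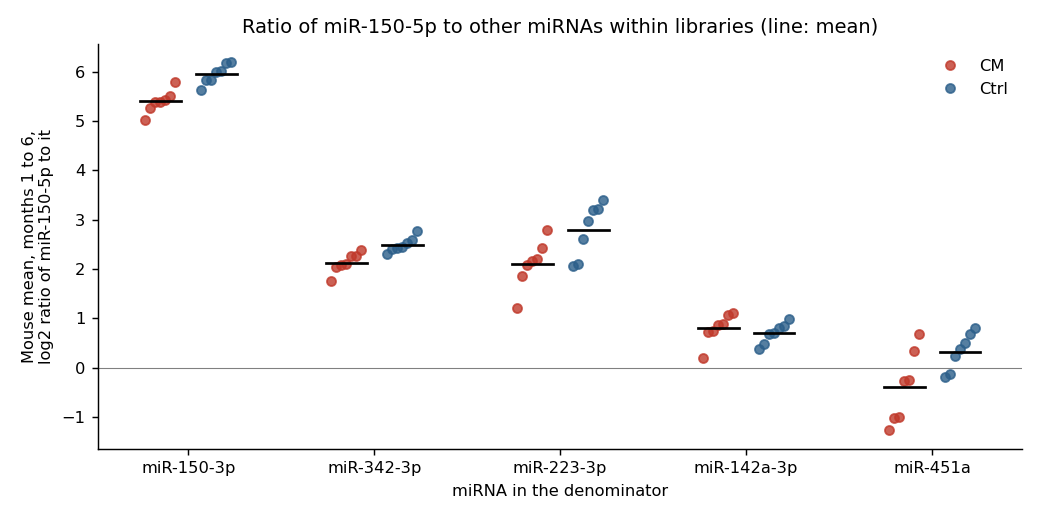
Mean log2 ratio of miR-150-5p to each of 5 miRNAs over months 1 to 6, from raw counts, with 1 point per mouse (7 CM, 7 Ctrl) and a line at the group mean. For miR-150-3p and miR-342-3p 6 of 7 CM mice lie below all Ctrl mice, and for miR-142a-3p the arms overlap.

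Within CM mice the change of miR-150-5p did not pass the test at month 1, and the level had fallen in the last libraries. From month 0 to month 1 it was lower in 6 of 7 CM mice and 4 of 7 Ctrl mice. The log2 fold changes were -0.34 ± 0.28 in CM mice (adjusted p = 0.454, edgeR; 12.7% of miRNAs called, and 16 in place of 59 with the mouse as a block) and 0.01 ± 0.18 in Ctrl mice (adjusted p = 0.995, edgeR; 0.63% called, and 0 in place of 3 with the block). The difference between these changes was -0.33 ± 0.34 (interaction term, adjusted p = 0.578, edgeR; 8.46% called, and 21 in place of 44 with the block). At month 3 miR-150-5p was below its own month 0 level in 6 of 7 CM mice and in 1 of 7 Ctrl mice, and the difference between the changes was -0.67 ± 0.27 (interaction term, p = 0.02, adjusted p = 0.206, edgeR; 2.33% called, and 0 in place of 12 with the block). Without CM mouse 3334 that term was -0.88 with an adjusted p of 0.0445 (edgeR).

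The last CM library of each mouse, taken between months 4 and 10, was lower in miR-150-5p than its own month 0 library in 7 of 7 mice. In CPM the change was from 23434 to 7124 in mouse 3334, 44790 to 23333 in 3336, 43294 to 8215 in 3338 and 48645 to 14497 in 3341. It was from 54260 to 46117 in mouse 3357, 41550 to 23070 in 3368 and 45769 to 33149 in 3370. As a log2 change, mice 3334, 3338 and 3341 fell the most (-1.72, -2.40 and -1.75), and 3357 the least (-0.23). The log2 fold change was -0.88 ± 0.33 (adjusted p = 0.0483, edgeR), among 39% of miRNAs called and 15.9% called lower, and -1.05 with an adjusted p of 0.017 when the mouse was a block (edgeR). Without mouse 3336, 3338, 3341, 3368 or 3370 the unblocked adjusted p was 0.0908, 0.11, 0.118, 0.0535 or 0.0566 (edgeR).

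In 3 of the 7 mice, 3334, 3338 and 3341, the last level lay below every Ctrl library of the same month (month 6 for the month 6.5 library). In mouse 3370 it lay above all 7 Ctrl libraries of month 9. miR-150-3p was lower in the last library than at month 0 in 6 of 7 CM mice, with medians of 354 and 798 CPM and a log2 fold change of -0.57 ± 0.30 (adjusted p = 0.138, edgeR).

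In Ctrl mice the change from month 0 was also negative at month 6 without passing the test, and months 7 to 10 were not tested against month 0. At month 6 miR-150-5p was below its own month 0 level in 7 of 7 Ctrl mice (median 27964 CPM against 44155). The log2 fold change was -0.48 ± 0.22 (adjusted p = 0.139, edgeR; 20.5% of miRNAs called). For miR-150-3p it was -0.60 ± 0.24 (adjusted p = 0.0844, edgeR), and -0.86 with an adjusted p of 0.00996 without Ctrl mouse 3342. The CM comparison with month 0 and the Ctrl comparison with month 0 cover different lengths of time, and the difference between them was not tested.

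**Figure D5:**
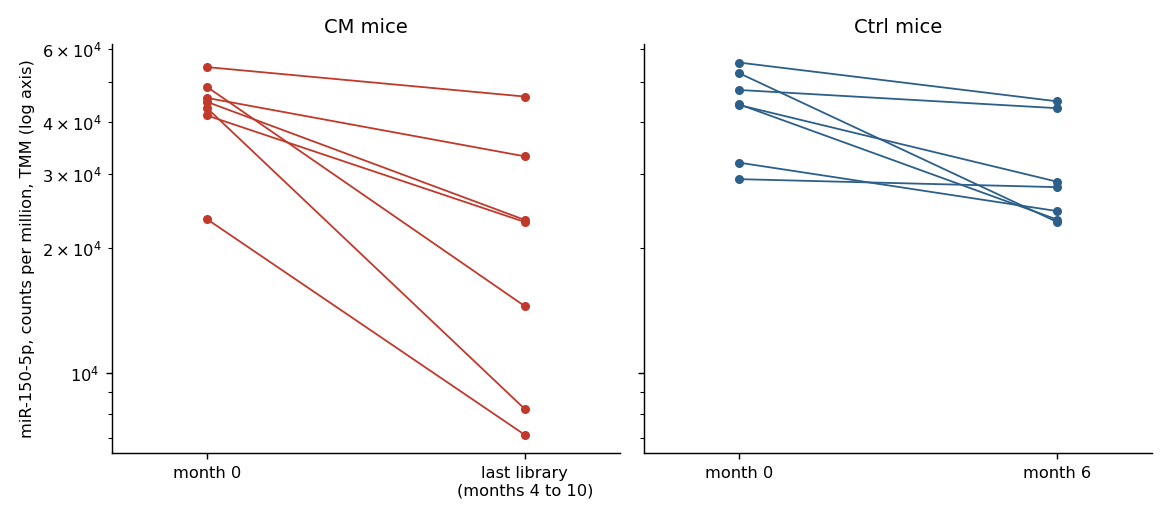
miR-150-5p in TMM-scaled CPM on a log axis, with a line from the month 0 library of each mouse to its last library in 7 CM mice (left) and to its month 6 library in 7 Ctrl mice (right). All 14 lines go down, and the steepest are those of CM mice 3338 (43294 to 8215), 3341 (48645 to 14497) and 3334 (23434 to 7124).

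The other lymphocyte miRNAs had log2 fold changes nearer to 0 than miR-150-5p at month 3. That difference was tested only for miR-342-3p, as the month 3 ratio given above. The list of 11, chosen with earlier results of these data known, had 0 members called higher and 2 called lower, where 7.69% of all miRNAs tested were called lower, with a median log2 fold change of -0.22 beside 0.07 over all miRNAs tested. The called members were miR-28a-3p at -0.59 ± 0.17 (adjusted p = 0.0212, edgeR) and miR-146a-5p, a brake on innate immune signalling, at -0.42 ± 0.14 (adjusted p = 0.0414, edgeR). The values for miR-342-3p and miR-155-5p, the latter induced on lymphocyte activation, were -0.22 ± 0.20 (adjusted p = 0.462, edgeR) and -0.44 ± 0.16 (adjusted p = 0.0627, edgeR). For miR-181a-5p, which sets T cell receptor sensitivity in the thymus, the value was 0.40 ± 0.60 (adjusted p = 0.704, edgeR).

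At month 1 the list had 0 of 11 called where 27.5% of all miRNAs were, a median of -0.36 beside -0.10 over all miRNAs, and values from -1.33 for miR-181a-5p to 0.27 for miR-29a-3p. In the last CM libraries against month 0 it had 5 called lower and 0 higher, where 15.9% of all miRNAs were called lower, with a median of -0.83 beside -0.06. These 5 were miR-181a-5p (-1.73), miR-342-3p (-0.97), miR-28a-3p (-0.95), miR-342-5p (-0.83) and miR-29c-3p (-0.76). miR-155-5p stood at 0.46 ± 0.28 (adjusted p = 0.2, edgeR).

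Markers of other cells moved in the same libraries. At month 3, 6 of 7 erythroid miRNAs were called higher in CM mice, as were 14.3% of all miRNAs tested, with a summed level of 48074 to 97143 CPM in CM and 37410 to 62759 CPM in Ctrl libraries. At month 1 all 7 were called higher, as were 14.6% of all miRNAs (53405 to 622569 CPM against 28313 to 69679 CPM). Of 6 myeloid miRNAs 1 was called higher at month 3, with sums of 89193 to 173224 CPM in CM and 124391 to 167266 CPM in Ctrl libraries, and of 8 progenitor miRNAs 2. Neither of 2 pan-hematopoietic miRNAs was called at month 3. At month 1, 5 of the 8 progenitor miRNAs were called higher, and 0 of the 6 myeloid. In the last CM libraries against month 0, 39% of all miRNAs were called and 15.9% called lower. There 3 erythroid miRNAs were called higher and 1 lower, and 3 progenitor miRNAs higher and 0 lower. Of the myeloid miRNAs 1 was called higher and 1 lower. With the erythroid list taken out of the library sizes the month 3 change of miR-150-5p was -0.69 (adjusted p = 0.0238, edgeR). That setting alters the scaling only and does not test the share of erythroid cells. The part of erythroid, myeloid and progenitor cells in the result was not tested. Total counts at month 3 ran from 2327096 to 5672962 in CM and from 4271438 to 6570100 in Ctrl libraries.

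The validation cohort could be read for miR-150 at point 5. There miR-150-5p had 94401 to 349965 reads in 6 CM libraries (median 253147) and 142230 to 296238 in 6 Ctrl libraries (median 204673). In the authors' TMM-scaled values this was 261993 at the lowest in CM, with a median of 742121, and 336145 at the lowest in Ctrl, with a median of 546983. In reads the CM range enclosed the Ctrl range. The difference was 0.24 ± 0.34 on the log2(value + 1) scale (adjusted p = 0.979, limma-trend; 0% of 930 miRNAs called, 54 at an unadjusted p under 0.05), opposite in sign to the training months and within its error of 0. miR-150-3p differed by 0.17 ± 0.31 (adjusted p = 0.979, limma-trend), and the log2 strand ratio was 6.89 ± 0.13 in CM and 6.82 ± 0.18 in Ctrl mice (SD, n = 6 each; exact permutation test, p = 0.513). How point 5 corresponds to a training month is not given.

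At the other points miR-150-5p had 0 to 10 reads and miR-150-3p 0 to 3 reads per library, and 13 of 90 libraries had no miR-150-5p read. With 3 reads taken as the limit that a count of 0 allows, 34 of the 90 were above it for miR-150-5p. miR-150-5p did not pass limma-trend at any of the 7 points (lowest adjusted p 0.725, with 0% to 2.78% of miRNAs called). Its lowest estimate was -2.48 ± 1.17 at point 4 (SE; p = 0.0385, adjusted p = 0.769, limma-trend). At point L against point 1 in 5 CM mice it was -2.64 ± 1.21 (SE; p = 0.0406, adjusted p = 0.114, limma-trend; 18.1% called). miR-150-3p passed the filter for low values at 3 of the 7 points, and was not called there (lowest adjusted p 0.895, limma-trend).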

How the data were processed

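Both training tables and the validation table were used. The raw count table was deposited for the training cohort, and how mature miRNAs were counted in it is not given in the sources used here. For the normalized tables the authors trimmed adapters with cutadapt, aligned reads to the genome with Bowtie, counted mature miRNAs and scaled CPM by TMM in edgeR. The genome is mm9 in the methods and GRCm38 in the processing notes. These deposited CPM columns do not sum to 1000000 and were treated as signal. Whole reads were recovered from 100% of values within 0.1 read, except for 2 validation columns at point 7.

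Counts were tested with edgeR 4.0.16 (quasi-likelihood, TMM, filterByExpr) per month, normalized validation values with limma 3.58.1 (limma-trend), and values per mouse with exact permutation tests. DESeq2 1.42.0 was an alternative. The count test on recovered reads called 125 miRNAs at month 3 and 0 at point 5. Libraries of 1 mouse are paired because the labels give the same animal (correlation of deviations at months 0 and 1 from -0.27 to 0.14). For count ratios 0.5 was added, and 1 for log2(CPM + 1). Named miRNAs were the 5 most and 3 least like miR-150-5p, the ratio partners and members of the lists. The members and lists were chosen with earlier results of these data known, and strand and miR-342-3p ratios by month were added after seeing the data. On data simulated at the depth of training month 1, with changes larger than the fitted training changes of miR-150, each tool recovered changed miRNAs. The shallow validation libraries were not simulated. Power at the sizes of change reported here was not tested.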

Additional observations from a re-analysis of the deposited data

Results flagged for a closer look

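Of 78 groups of 4 to 10 mice examined, 4 held 1 value that stood apart from the rest by Dixon's 95% criterion, and chance gives about 1 in 20. Before induction miR-150-5p was 23434 CPM in CM mouse 3334 and 41550 to 54260 CPM in the other 6 CM mice. At month 10 it was 50510 CPM in Ctrl mouse 3335 and 14435 to 19479 CPM in the other 5 Ctrl mice. The running numbers of these 2 mice, 3334 and 3335, cross in the titles, and the results without both are given with the other alternatives. At month 2 the log2 ratio of miR-150-5p to miR-150-3p was 4.58 in Ctrl mouse 3349 and 6.03 to 6.56 in the other 6. The mean log2 ratio of miR-150-5p to miR-142a-3p was 0.18 in CM mouse 3338 and 0.72 to 1.10 in the other 6 CM mice. What set these libraries apart was not tested.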

How the results depend on the processing

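Of 290 alternative values other than those without 1 mouse, 247 kept their direction and their side of the threshold. At month 3 the call of miR-150-5p held under DESeq2, raw library sizes, library sizes without the erythroid list, both filters, sex as a covariate and an exact permutation test of the normalized values. It was lost with the G number, nearly confounded with arm in that month, as a covariate (-0.70). The call was also lost in 1 fit over all training libraries (-0.78, adjusted p = 0.0846 by edgeR). The mean of miR-150-5p over months 1 to 6 passed in the normalized table (-0.49), with raw library sizes (-0.53) and without the month 2 library of Ctrl mouse 3349 (-0.55), and did not pass over all months (-0.24) or without mice 3334 and 3335 (-0.44). The strand ratio missed the threshold in the normalized table (-0.16), where the mean of miR-150-3p was -0.33. The change of miR-150-3p in Ctrl mice to month 6 passed under DESeq2 (-0.64). The cause was not tested for any of these. The mouse as a replicate block changed no call of a miR-150 strand (-1.05 for miR-150-5p in the last CM libraries); the miRNAs called with it are given beside each change.

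The other sign changes were among differences not called with all mice in the count table. For miR-150-5p these were, without mice 3334 and 3335, 0.033 at month 0 and 0.10 at month 6, and at month 7 0.018 with sex as a covariate and 0.023 in the normalized table by permutation. For miR-150-3p, without mice 3334 and 3335, they were -0.0011 at month 1, -0.025 at month 3, 0.13 at month 4, -0.062 and 0.040 from month 0 to 1 in CM and Ctrl mice, and -0.035 and -0.19 for the interaction at months 1 and 3 (-0.0028 at month 3 with the mouse as a block). For miR-150-3p with the G number they were -0.032, -0.15, -0.086 and -0.038 at months 0, 2, 5 and 7, and with sex -0.11 and -0.061 at months 0 and 1. For miR-150-3p at month 0 they were -0.026 under DESeq2, -0.052 with no filter, -0.030 with a minimum of 10 counts and -0.035 in 1 fit, and at month 3 -0.0040, -0.062 and -0.048 under DESeq2, no filter and 1 fit. From the normalized table edgeR on recovered reads gave miR-150-3p -0.29, -0.44, -0.24, -0.33 and -0.19 at months 0, 1, 3, 5 and 7, and permutation -0.26, -0.45, -0.40, -0.27 and -0.081.

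Without 1 mouse in turn, miR-150-5p ranged from -0.15 to 0.034 at month 0, -0.59 to -0.27 (without CM mouse 3336) at month 1, -0.45 to -0.10 (without Ctrl mice 3349 and 3342) at month 2, -0.76 to -0.57 at month 3, -0.34 to 0.032 at month 6, -0.24 to -0.017 (without Ctrl mice 3350 and 3342) at month 7, -0.12 to 0.11 from month 0 to 1 in Ctrl mice, -1.05 to -0.76 in the last CM libraries, -0.88 to -0.50 for the month 3 interaction and -0.61 to -0.40 for the mean. The difference in its slope was -0.0032 without CM mouse 3338 in place of -0.074, and at month 2 miR-150-5p was -0.052 once sex entered the fit and -0.74 once the G number did. miR-150-3p ranged from -0.10 to 0.083, -0.068 to 0.19, 0.39 to 0.61, -0.053 to 0.080, -0.40 to 0.029, -0.014 to 0.22, -0.28 to 0.060 and -0.090 to 0.27 at months 0 to 7. It ranged from -0.062 to 0.19 and -0.19 to 0.040 from month 0 to 1 in CM and Ctrl mice, -0.86 to -0.51 in Ctrl mice to month 6, -0.060 to 0.23 and -0.22 to 0.14 for the interactions and -0.049 to 0.11 for the mean. The ratios to miR-223-3p and miR-451a ranged from -0.81 to -0.54 and -0.91 to -0.58. Outside point 5 the count test on recovered reads could not be fitted to miR-150-5p, which failed its filter. Between settings the count of miRNAs called by month moved by over 1.5 times from 130 at month 1 (10 with the G number), from 65 at month 2 (42 with no filter, 0 with the G number, and 1.55 and 1.65 times as many under DESeq2 and on recovered reads), from 4 at month 4 (0 with sex to 70 in 1 fit), from 0 at month 5 (18 under DESeq2, 18 in 1 fit and 53 without mice 3334 and 3335), from 0 at month 6 (19 in 1 fit), from 1 at month 0 (0 to 4) and from 1 at month 7 (up to 41 in 1 fit). Outside the block, DESeq2 called 15 in place of 3 in Ctrl mice at month 1 and 23 in place of 12 for the month 3 interaction, and point L gave 17 to 51 in place of 30.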
